A study of Mus musculus with 10 samples.

Results

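The kinesins of the Kif gene family were followed across 3 groups of mouse spleen samples measured on Affymetrix MOE430_2 arrays. Members were all genes whose platform symbol consists of Kif, a number and an optional letter and digit, taken from probe sets with a single symbol. The rule found 37 kinesin genes with 99 probe sets, out of 18193 genes on the array, and each gene was represented by its brightest probe set. By textbook role they were sorted into 12 mitotic kinesins, 13 transport kinesins and 12 others that serve the cilium, signalling or microtubule dynamics. The sorting was made with earlier results of these data known. It placed Kif2a, which has roles both at spindle poles and in neurons, among the others.

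Kinesins are ATP-driven motors and microtubule-modifying proteins that share a conserved motor domain. Mitotic kinesins build the spindle, move chromosomes and complete cytokinesis, and their messenger RNAs are known to accumulate in dividing cells as they approach mitosis. Transport kinesins carry vesicles, mitochondria and endosomes towards the cell periphery, and in cytotoxic lymphocytes microtubule motors also move lytic granules.

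The IL-15 NK group held 3 arrays of NK cells cultured for 24 h with 100 ng/mL of recombinant mouse IL-15, and the resting NK group held 3 arrays of NK cells lysed right after sorting. Both came from wild type C57Bl/6 spleens and were flow sorted as NK1.1+CD3- cells. The splenocyte group held 4 arrays of resting unsorted splenocytes, described by the submitters as 2 biological samples with 2 chips each, without saying which chips belong together. The submitters describe the NK arrays as biological replicates in pairs, and how many mice went into each is not given in the sources used here. No NK cells cultured without IL-15 were among the samples, so IL-15 and 24 h of culture cannot be told apart. NK RNA was amplified in 2 cycles and splenocyte RNA in 1, so amplification cannot be told apart from cell type in any comparison with splenocytes.

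All values are the deposited array signals, in linear intensity units scaled by the authors to the same trimmed mean on every array. A signal of 179.85 served as a floor below which values were not ordered, and log2 differences were taken on floored signals. A gene was tested where at least 3 arrays of the groups compared exceeded the floor, and it was called where limma's adjusted p over all genes tested was under 0.05. A gene that passed this filter through the bright group alone had to differ, so counts below are of tested members and not of the whole list. Where a dimmer group had arrays at the floor, the fold is a lower bound and is written as "at least". A bulk array cannot tell fewer expressing cells from less RNA per cell.

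By most marker genes the groups matched their labels, with exceptions in the T cell list. All 10 NK cell marker genes were above the floor on every array and all 10 were called higher in IL-15 NK and in resting NK cells than in splenocytes. The summed signal of 13 B cell markers was 10814 to 15045 in IL-15 NK cells, 22382 to 71144 in resting NK cells and 362607 to 438500 in splenocytes. For T cell markers the sums were 9852 to 11087, 15299 to 21835 and 82668 to 97901 in the same order. Of 10 tested T cell markers 8 were lower than in splenocytes in each NK group, while Cd28 and Cd8a did not pass. Cd3g, although lower, exceeded the floor on every NK array. Macrophage and monocyte markers summed to 1210.3 to 1888 in IL-15 NK cells, 6838 to 28879 in resting NK cells and 210708 to 236897 in splenocytes. Erythroid markers summed to 18833 to 28888 in IL-15 NK cells, 2399 to 4305 in resting NK cells and 175523 to 219669 in splenocytes. Tfrc, 1 of these, alone read 28129, 18225 and 22995 in IL-15 NK cells. The ratio of 3-prime to 5-prime Gapdh control signal, a sign of RNA and amplification quality, was 2.90 to 3.81 in IL-15 NK cells, 5.88 to 9.54 in resting NK cells and 1.004 to 1.39 in splenocytes. For Actb it was 1.28 to 1.49, 2.27 to 6.51 and 1.34 to 1.59 in the same order. Resting NK replicate 2 had the highest ratio of all arrays for both genes. The part of these differences in the kinesin results was not tested.

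Most of the mitotic kinesins bright enough to test rose with IL-15. Of 12 mitotic genes, 9 could be tested between the NK groups, and 8 of these rose while none fell. Kif2a, sorted with the others, is not in this count and did not pass (log2 difference 0.41, limma adjusted p = 0.2). Across all 11433 genes tested, 26.3% were called, with 14.2% rising and 12.1% falling. The median log2 difference of the tested mitotic kinesins was 2.28, against -0.09 over all genes tested. In all 8 genes that rose, every IL-15 array lay above every resting array. This separation is read from the same values as the calls and adds no separate support.

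Kif2c, a microtubule depolymerase that corrects faulty kinetochore attachments, had the largest rise among the genes with a measured fold, which leaves out Kif20a and Kif4, whose folds are lower bounds. Its signal was 4041, 4105 and 2682 in IL-15 NK cells, against 296, 396 and 288 in resting NK cells. This was a log2 difference of 3.45 ± 0.29 (SE), or 10.96-fold, with a limma adjusted p of 4.1e-05. Kif11, the plus-end motor that pushes spindle poles apart, had signals of 3437, 3578 and 2523 in IL-15 NK cells, against 507, 221 and 267 in resting NK cells. The dimmest IL-15 array was therefore several times brighter than the brightest resting array, and the fitted rise was 10.1-fold (log2 difference 3.34 ± 0.35, adjusted p = 0.00014).

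The motors of the central spindle and cytokinesis moved the same way. Kif20a, which relocates the Aurora B complex to the central spindle, read 1497, 1554 and 1147 in IL-15 NK cells, against 144, 171 and 144 in resting NK cells. All 3 resting arrays lay below the floor, so the rise was at least 7.71-fold (adjusted p = 6.4e-05), and this gene passed the filter through its IL-15 arrays alone. Kif23, the motor subunit of the centralspindlin complex, reached 5776, 7505 and 5282 in IL-15 NK cells, against 1006, 1152 and 454 in resting NK cells. The rise of 7.58-fold had a log2 difference of 2.92 ± 0.34 and an adjusted p of 0.00027, a call lost with the median over its probe sets (adjusted p = 0.29). Kif20b, which acts late in cytokinesis, gave 2061, 3304 and 2382 in IL-15 NK cells, against 712, 994 and 899 in resting NK cells. It had the smallest rise among the 8 that were called, at 2.94-fold (log2 difference 1.56 ± 0.27, adjusted p = 0.0023), and its call too was lost with that median (adjusted p = 0.5).

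The chromosome-binding kinesins also rose. Kif22, a chromokinesin that pushes chromosome arms towards the spindle equator, had signals of 14820.4, 22164 and 10015 in IL-15 NK cells, against 2874, 3406 and 2945 in resting NK cells, a 4.85-fold rise (log2 difference 2.28 ± 0.27, adjusted p = 0.00026). Kif4, the chromokinesin that shapes condensed chromosomes and the spindle midzone, had signals of 1062, 1313 and 723 in IL-15 NK cells, against 315, 153 and 286 in resting NK cells. With 1 resting array at the floor, its rise was at least 3.96-fold (adjusted p = 0.002).

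Of the kinesin-8 pair, 1 member was called. Kif18b, a depolymerase of astral microtubules, had signals of 1347, 1438 and 1134 in IL-15 NK cells, against 402, 338 and 339.5 in resting NK cells, and rose 3.62-fold (log2 difference 1.86 ± 0.27, adjusted p = 0.00085). Kif18a, which dampens chromosome movements at metaphase, had signals of 433, 519 and 311 in IL-15 NK cells, against 200.4, 212 and 446 in resting NK cells. These ranges overlapped and the difference of 0.63 ± 0.36 did not pass the test (adjusted p = 0.24). Whether Kif18a and Kif18b differed in their response was not tested.

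The remaining mitotic genes were too dim to test. Kif14, which works with citron kinase in cytokinesis, and Kif15, a backup motor for spindle bipolarity, stayed below the floor on all 10 arrays. Kif2b, a spindle depolymerase, exceeded it on 1 resting NK array and 1 splenocyte chip. Under the naming rule Kif14, Kif15 and Kif2b had a single probe set each. A gene that is silent cannot be told apart from a set that reads poorly.

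**Figure D1:**
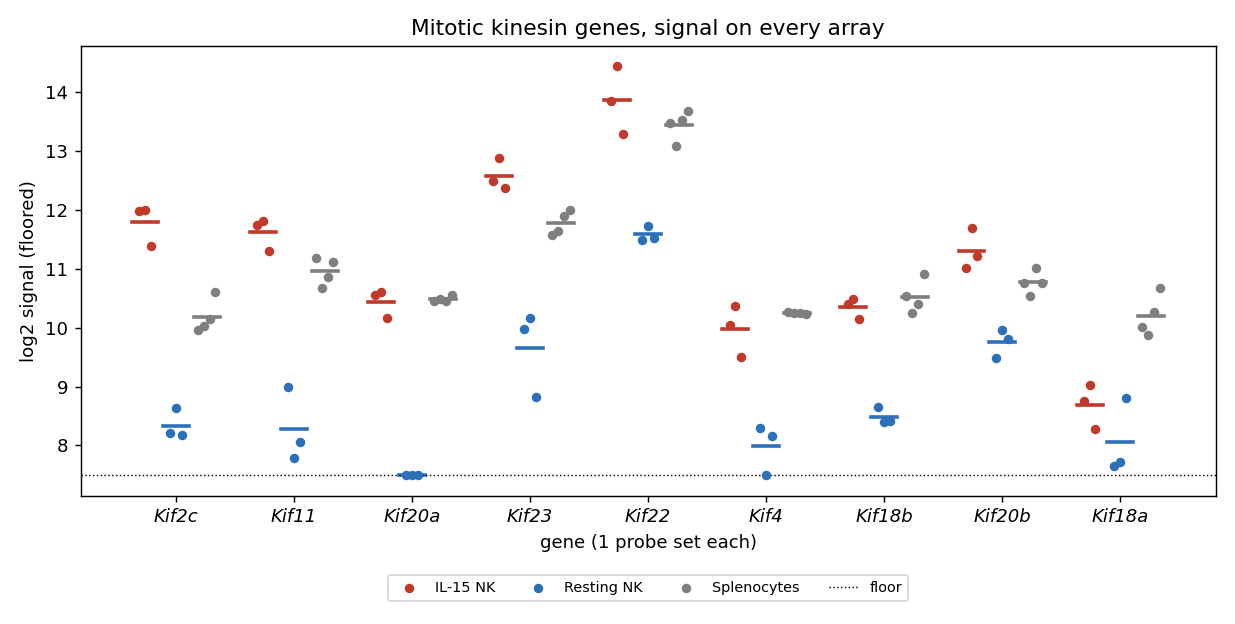
Signal of the 9 tested mitotic kinesins (x axis) on the log2 scale after flooring (y axis), with 1 point per array, bars at group means and a dotted line at the floor. IL-15 NK arrays lie above resting NK arrays without overlap for every gene shown except Kif18a, and the 3 resting arrays of Kif20a sit on the floor.

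The promoters of the mitotic genes were set beside these values, since 8 of them rose together. RefSeq windows on GRCm38.p6 from 250 bases before to 50 bases after the annotated start were matched by symbol for 31 of the 37 kinesins, with the first listed window used for the 4 genes that had several. They were searched on both strands for TTTGAA, the core of the cell cycle genes homology region, an element described in promoters of genes that peak in late cell cycle. The search also covered CCAAT, the box bound by NF-Y. Different words were counted separately and may share end letters, and 2 adjoining TTTGAA matches in Kif20b were counted as 2 positions.

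The last 200 bases of the window are shown for the 7 genes that rose with IL-15 and had a window, to display where the matches lie, followed by the 2 transport genes that fell. Capitals mark matches to these words on either strand, and each sequence runs 5′ to 3′ on the gene's strand, with 150 bases before the start.
Kif2c (chr4:117178723-117178922, minus strand): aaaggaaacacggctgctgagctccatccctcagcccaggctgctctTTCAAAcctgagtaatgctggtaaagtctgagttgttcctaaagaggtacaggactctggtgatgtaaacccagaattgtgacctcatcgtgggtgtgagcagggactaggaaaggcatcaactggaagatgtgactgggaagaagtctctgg
Kif11 (chr19:37376232-37376431, plus strand): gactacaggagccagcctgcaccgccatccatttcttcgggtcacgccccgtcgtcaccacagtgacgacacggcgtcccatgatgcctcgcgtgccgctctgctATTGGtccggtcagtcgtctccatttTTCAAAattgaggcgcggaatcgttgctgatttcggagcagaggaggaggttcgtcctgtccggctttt
Kif23 (chr9:61946750-61946949, minus strand): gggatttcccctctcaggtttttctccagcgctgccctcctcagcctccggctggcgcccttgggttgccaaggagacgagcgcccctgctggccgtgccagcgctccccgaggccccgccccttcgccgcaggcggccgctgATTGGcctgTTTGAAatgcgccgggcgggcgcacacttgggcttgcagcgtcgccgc
Kif22 (chr7:127042371-127042570, minus strand): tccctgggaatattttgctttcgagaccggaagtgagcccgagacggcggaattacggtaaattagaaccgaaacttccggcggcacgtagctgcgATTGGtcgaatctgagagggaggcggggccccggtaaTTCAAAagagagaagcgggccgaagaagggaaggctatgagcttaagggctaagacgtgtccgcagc
Kif4 (chrX:100625915-100626114, plus strand): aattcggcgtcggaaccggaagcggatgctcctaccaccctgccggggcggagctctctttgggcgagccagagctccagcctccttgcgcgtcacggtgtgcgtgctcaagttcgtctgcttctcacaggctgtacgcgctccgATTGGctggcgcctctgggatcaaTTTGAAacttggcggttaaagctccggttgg
Kif18b (chr11:102925075-102925274, minus strand): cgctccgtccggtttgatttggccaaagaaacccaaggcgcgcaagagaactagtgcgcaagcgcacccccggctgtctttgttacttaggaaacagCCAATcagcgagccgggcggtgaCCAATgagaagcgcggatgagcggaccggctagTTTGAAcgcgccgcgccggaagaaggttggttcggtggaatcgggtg
Kif20b (chr19:34922208-34922407, plus strand): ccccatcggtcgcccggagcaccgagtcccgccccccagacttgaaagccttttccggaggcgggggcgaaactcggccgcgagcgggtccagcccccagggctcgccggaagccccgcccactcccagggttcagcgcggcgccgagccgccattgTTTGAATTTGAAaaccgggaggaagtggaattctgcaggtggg
Kif1b (chr4:149307684-149307883, minus strand): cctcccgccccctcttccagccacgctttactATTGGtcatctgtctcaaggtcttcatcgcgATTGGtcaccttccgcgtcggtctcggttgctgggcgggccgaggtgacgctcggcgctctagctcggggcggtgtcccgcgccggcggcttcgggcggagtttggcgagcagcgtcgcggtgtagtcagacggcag
Kif1c (chr11:70700398-70700597, plus strand): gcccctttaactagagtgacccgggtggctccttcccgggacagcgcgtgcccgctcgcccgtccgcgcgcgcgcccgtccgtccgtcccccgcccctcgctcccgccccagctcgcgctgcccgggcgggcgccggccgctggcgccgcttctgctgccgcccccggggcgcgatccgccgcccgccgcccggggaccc

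TTTGAA occurred in 9 of 11 mitotic windows (81.8%), 0 of 10 transport windows and 2 of 10 other windows (20%), against 4893 of 27025 windows of all genes (18.1%). It was present in all 7 windows of mitotic genes that rose. In 6 of those 7 a match started within 30 bases of the annotated start, counted so that base 1 is the first transcribed base, at -19 in Kif11, -17 in Kif22, 3 in Kif23, 4 in Kif18b, 8 and 14 in Kif20b and 20 in Kif4. The match in Kif2c lay farther out, at -103. Counting all mitotic genes with a window, 7 of 11 (63.6%) had a match within 30 bases, a distance chosen after the positions were seen, against 3.1% of all genes. Kif18a, the tested mitotic gene that did not pass, had no TTTGAA in its window. Kif15 had matches at -19 and -234 and Kif14 at -228, although the single probe set of each stayed below the floor on every array.

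CCAAT occurred in 7 of 11 mitotic windows (63.6%) and 3 of 10 transport windows (30%), against 37.9% of all windows. The E2F-type word GCGGGAA was in none of the 11 mitotic windows and in 4.66% of all windows. A related homology word, TTTAAA, was in 2 of 11 mitotic windows (18.2%), against 13.2% of all. Base composition differed between the role groups, with a median GC content of 59.7% in mitotic windows, 68.2% in transport windows and 52.7% over all genes. Among all genes with windows in the GC range of the mitotic group (43.7% to 65%), 16.9% held TTTGAA, and in the range of the transport group (58% to 86.7%) 6.53% did. These matches describe the sequence only, and no factor binding was measured.

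**Figure D2:**
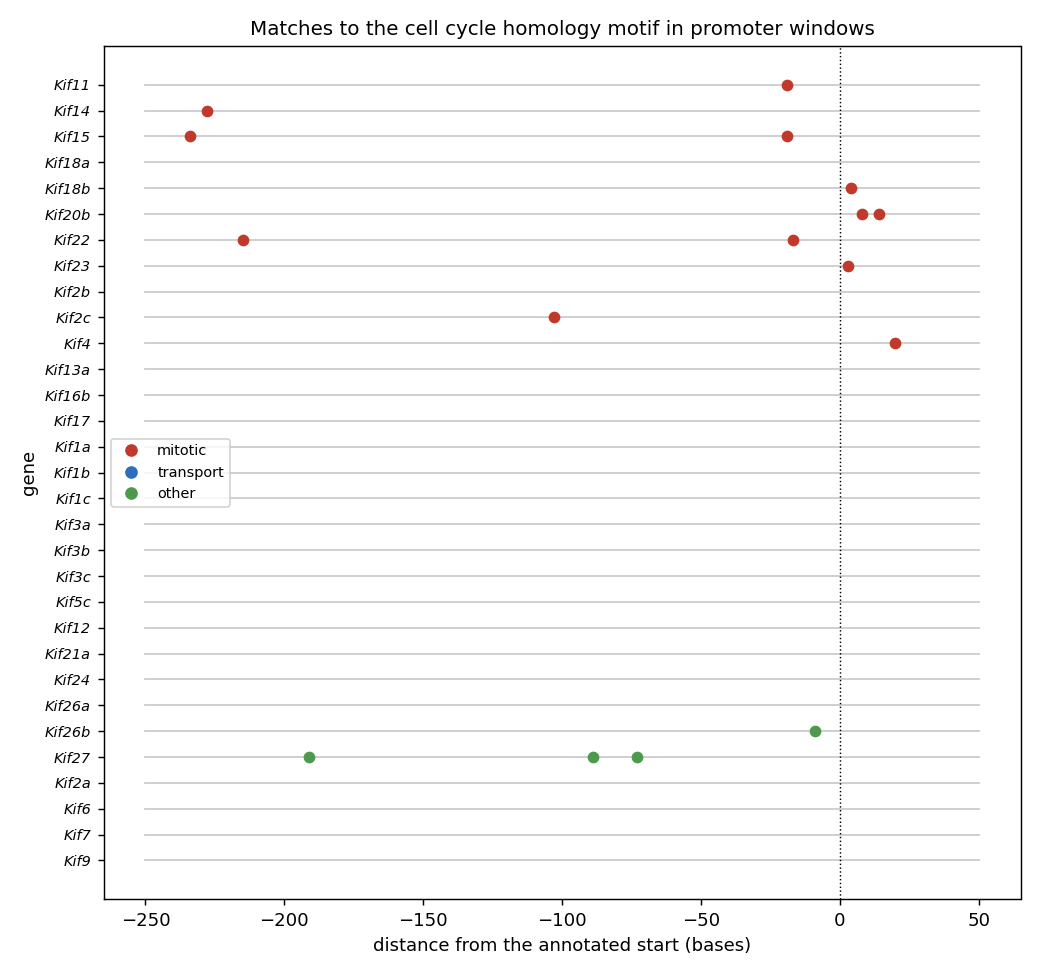
Position of each cell cycle homology word (first base, x axis, in bases from the annotated start) in the promoter windows of 31 kinesins (y axis), coloured by role. Points of mitotic genes gather within 30 bases of the start for 7 genes, and no transport gene has a point.

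No transport kinesin was called higher with IL-15. Of 13 transport genes, 11 were tested, 2 fell, none rose and 9 did not pass. Over all genes tested, 14.2% rose and 12.1% fell. With 11 genes tested, neither count is read as a trait of the transport group. The differences of the 11 ran from -1.38 to -0.09 with a median of -0.48, against -0.09 over all genes. The 2 that fell belong to the kinesin-3 family.

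Kif1b, which carries mitochondria and vesicle precursors, had signals of 3377, 3432 and 3534 in IL-15 NK cells, against 8349.7, 8427 and 10280.3 in resting NK cells. The arrays within each group lay close together and far from the other group. The gene was 2.60-fold lower in IL-15 NK cells (log2 difference -1.38 ± 0.18, adjusted p = 0.00041). Kif1c, a motor for dense-core and Golgi-related vesicles, had signals of 3417, 3760.0 and 2889.8 in IL-15 NK cells, against 5295, 6869.9 and 4990.5 in resting NK cells. It was 1.70-fold lower (log2 difference -0.76 ± 0.20, adjusted p = 0.02), and the call was lost without IL-15 NK replicate 1 (adjusted p = 0.054) and without IL-15 NK replicate 3 (adjusted p = 0.09). It was lost as well without a filter on low signals (adjusted p = 0.065) and with the median over its probe sets (adjusted p = 0.93). A single array also bore on the count: without resting NK replicate 2, 4 transport kinesins fell, adding Kif17 (adjusted p = 0.015) and Kif3a (adjusted p = 0.043).

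Among the conventional kinesins, Kif5b, the broadly expressed heavy chain of kinesin-1, had signals of 6112, 7235 and 4404 in IL-15 NK cells, against 7151, 4836 and 6815 in resting NK cells. The groups overlapped, with a difference of -0.09 ± 0.24 (adjusted p = 0.81). Its paralogue Kif5c, known mainly from neurons, had signals of 304, 147 and 283 in IL-15 NK cells, against 459.6, 344 and 382 in resting NK cells, and did not pass (difference -0.66 ± 0.29, adjusted p = 0.13) although the groups did not overlap. Kif5a, another neuronal heavy chain, exceeded the floor on no NK array and was not tested.

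The kinesin-2 motors, which serve intraflagellar and endosomal transport, gave no calls in this comparison. Kif3b had signals of 1305, 1468 and 1333 in IL-15 NK cells, against 1634, 1596 and 1645 in resting NK cells, groups that were close but did not overlap (difference -0.25 ± 0.23, adjusted p = 0.45). Kif3a differed by -0.75 ± 0.37, Kif3c by -0.48 ± 0.32 and Kif17 by -1.02 ± 0.49, with adjusted p-values of 0.17, 0.3 and 0.16. Kif17 varied most among resting replicates, at 962, 254 and 649.8, against 221, 198 and 438 in IL-15 NK cells.

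Of the endosomal kinesin-3 motors, Kif13b differed by -0.09 ± 0.23 (adjusted p = 0.82) and Kif16b, which binds early endosomes, by -0.43 ± 0.26 (adjusted p = 0.25). Kif13a, a carrier of Golgi-derived and endosomal vesicles, was near the floor and differed by -0.32 ± 0.42 (adjusted p = 0.62). Kif1a, the neuronal motor for synaptic vesicle precursors, was below the floor on all 6 NK arrays.

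**Figure D3:**
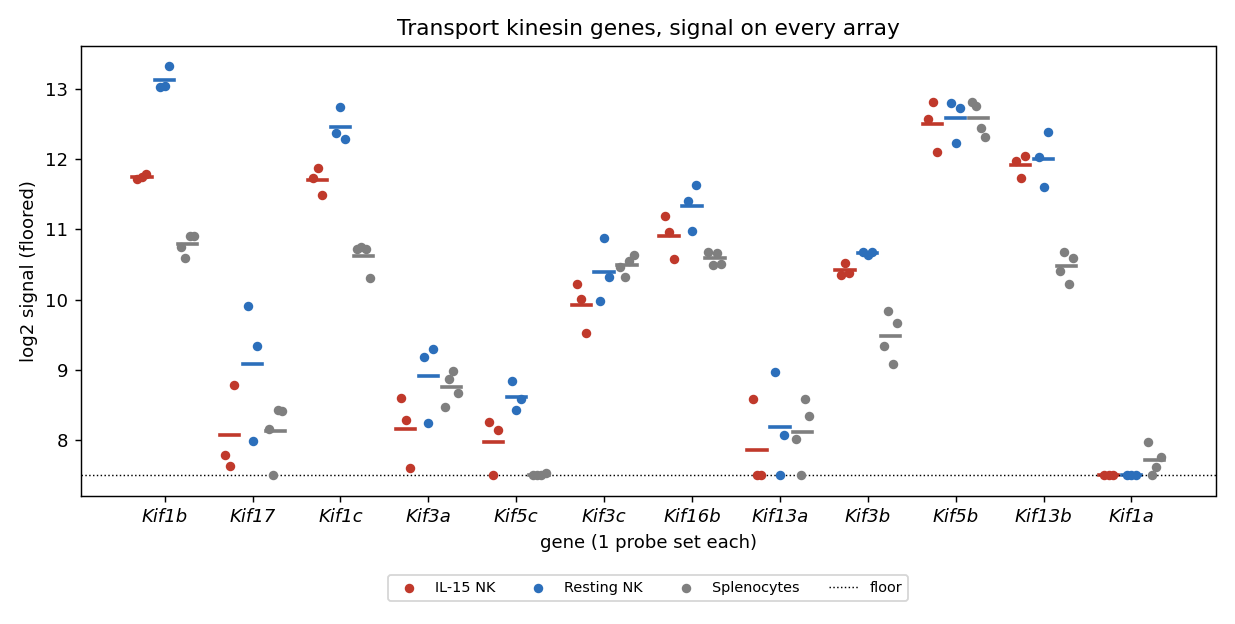
Signal of the 12 transport kinesins tested in at least 1 comparison (x axis) on the log2 scale after flooring (y axis), with 1 point per array, bars at group means and a dotted line at the floor. For Kif1b and Kif1c the IL-15 NK arrays lie below the resting NK arrays and above the splenocyte chips, while Kif5b overlaps in all 3 groups.

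Among the 12 other kinesins 4 were tested with IL-15, and Kif21b alone was called, against 26.3% called over all genes tested. Kif21b, a kinesin-4 that restrains microtubule growth in neurons and T cells, had signals of 2031, 2475 and 2577 in IL-15 NK cells, against 6926, 4667 and 5609 in resting NK cells. It was 2.41-fold lower in IL-15 NK cells (log2 difference -1.27 ± 0.22, adjusted p = 0.002), with no overlap between groups, and missed the threshold with the median over its probe sets (adjusted p = 0.054). Kif2a, a depolymerase related to Kif2c with roles at spindle poles and in neurons, had signals of 7836, 5743 and 6306 in IL-15 NK cells, against 4855, 3888 and 6362 in resting NK cells, which overlapped (difference 0.41 ± 0.22, adjusted p = 0.2). Kif24, a centriolar kinesin that restrains cilium assembly, differed by 0.46 ± 0.29 (adjusted p = 0.27) and Kif12 by 0.10 ± 0.29 (adjusted p = 0.84).

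B cell and myeloid marker signals were lower with IL-15 than at rest, in parallel with the kinesins that fell. Of 8 tested B cell markers 5 fell, and of 7 tested macrophage and monocyte markers 6 fell. Of 5 tested T cell markers 2 fell, and over all genes tested 12.1% fell. Among the markers that fell, Cr2, Lyz1, Mpeg1 and Vcam1 were below the floor on all IL-15 arrays. These passed the filter through resting arrays alone, so they had to differ. Above the floor were 3 to 6 of 13 B cell markers on IL-15 arrays and 6 to 13 on resting arrays, and 2 to 3 of 12 macrophage markers on IL-15 arrays and 8 to 9 on resting arrays. Kif1b and Kif1c were brighter in resting NK cells than on the splenocyte chips, while Kif21b in resting NK cells overlapped splenocytes. The median B cell marker in resting NK arrays stood at 2.02% to 13.7% of its splenocyte level, and the median macrophage marker at 4.00% to 8.98%. Their part in the kinesin differences was not tested.

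Resting NK cells carried less mitotic kinesin signal than splenocytes, and more of several transport motors. All 9 tested mitotic kinesins were lower in resting NK cells, with log2 differences from -3.00 to -1.02 and a median of -2.12. Among them Kif20a passed the filter through the splenocyte chips alone and had to differ, and its -3.00 is a bound. Of 12 tested transport kinesins 5 were higher and none lower, with a median of 0.86. Over all 12938 genes tested in this comparison, 38.6% were called, 17.1% higher and 21.5% lower, and the median was -0.06. All 8 tested erythroid markers were also lower in resting NK cells, several of them tested through the splenocyte chips alone. The part of cell composition in the kinesin differences was not tested. The resting NK arrays are those used above, so the comparisons share samples and are not independent.

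Kif20a, below the floor on all resting NK arrays, had splenocyte signals of 1402, 1435, 1407 and 1504 and was at least 7.99-fold lower in resting NK cells (adjusted p = 3.4e-05). Kif11 had splenocyte signals of 2321, 1641, 1863 and 2206 and was 6.41-fold lower in resting NK cells (log2 difference -2.68 ± 0.37, adjusted p = 0.00073). Kif18a, which had not passed with IL-15, had splenocyte signals of 1034, 936, 1225 and 1625 and was 4.42-fold lower in resting NK cells (adjusted p = 0.0031). Kif4, with 1 resting NK array below the floor, was lower in resting NK cells by a log2 difference of -2.26 or beyond (adjusted p = 0.0012). The remaining 5 differed by -2.12 (Kif23), -2.04 (Kif18b), -1.85 (Kif22), -1.85 (Kif2c) and -1.02 (Kif20b) on the log2 scale. None of the 9 genes overlapped between resting NK cells and splenocytes, which again is read from the same values as the calls.

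On the transport side Kif1b stood out from splenocytes most. Its splenocyte signals were 1722, 1543, 1915 and 1928, and it was 5.07-fold higher in resting NK cells (log2 difference 2.34 ± 0.16, adjusted p = 1.8e-05). Kif1c, with splenocyte signals of 1682, 1729, 1684 and 1269, was 3.59-fold higher in resting NK cells (adjusted p = 0.00021). Kif13b had signals of 4214, 3115 and 5347 in resting NK cells, against 1365, 1643, 1193 and 1539.6 in splenocytes, a 2.90-fold difference (adjusted p = 0.0017). Kif3b, with splenocyte signals of 644, 910.4, 539 and 816, was 2.28-fold higher in resting NK cells (adjusted p = 0.0036), a call lost with the median over its probe sets (adjusted p = 0.41). Kif5c had splenocyte signals of 96.8, 96, 180.0 and 183, below the floor on 2 chips and within a few units of it on the others, and was at least 2.17-fold higher in resting NK cells (adjusted p = 0.0084).

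Other transport members did not pass between resting NK cells and splenocytes. Kif16b came closest, at 2712, 2015 and 3192 in resting NK cells and 1635, 1448, 1629.8 and 1461 in splenocytes, with no overlap and an adjusted p of 0.051. It passed under 6 of 14 alternatives, among them quantile normalization (adjusted p = 0.016), independent chips (adjusted p = 0.0081) and the median over its probe sets (log2 difference 1.51, adjusted p = 0.0018). Kif5b overlapped, with splenocyte signals of 7223, 6979, 5568 and 5101 and a difference of 0.01 ± 0.26, although the median over its probe sets was called lower in resting NK cells (-0.59, adjusted p = 0.027). Kif17 differed by 0.96 ± 0.56, Kif3a by 0.16 ± 0.40, Kif3c by -0.10 ± 0.33, Kif13a by 0.07 ± 0.48 and Kif1a by -0.22 ± 0.13, none of which passed. Another set of Kif13a was called lower in resting NK cells (-1.31, limma adjusted p = 0.00049). It was above the floor on the 4 splenocyte chips and on no NK array, so it had to differ.

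Among the other kinesins 7 were tested between resting NK cells and splenocytes and Kif6 alone was called. Kif6, a motile cilium kinesin, was below the floor on all NK arrays and above it on 3 of 4 splenocyte chips, at 298, 240.4, 325 and 31.8. Its groups overlapped, its adjusted p of 0.048 was close to the threshold, and it did not pass under 9 of the 10 alternative settings that could test it. Kif21b had splenocyte signals of 5381, 5866, 5238 and 10480.2 and did not pass (difference -0.19 ± 0.23, adjusted p = 0.57). Kif7, a regulator of Hedgehog signalling at the cilium tip, and Kif9, a motile cilium kinesin, were near the floor and gave differences of -0.24 ± 0.22 and 0.05 ± 0.19. Kif2a, Kif12 and Kif24 differed by 0.07, -0.01 and -0.25 and did not pass. The other 5, Kif21a, Kif26a, Kif26b, Kif27 and Kif28, exceeded the floor on too few arrays for any test.

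After IL-15, the test separated few mitotic kinesins from splenocytes. Of 9 tested mitotic genes 1 was higher in IL-15 NK cells, 1 was lower and 7 did not pass, with a median of 0.42. Of 12 transport genes 4 were higher and none lower, with a median of 0.13. Over all 12465 genes tested, 44.3% were called, 20.8% higher and 23.5% lower, with a median of -0.10. The same splenocyte chips and the same IL-15 arrays enter here as above.

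By brightest probe sets, Kif2c was the mitotic gene called above splenocytes. Its splenocyte signals were 990.1, 1044, 1133 and 1557, and it was 3.05-fold brighter with IL-15 (log2 difference 1.61 ± 0.29, adjusted p = 0.0023). With the median over its probe sets the difference turned to -0.13 (adjusted p = 0.61). Its other 3 sets gave 0.13 and 0.11, which did not pass, and -1.20, a call in the opposite direction (adjusted p = 0.0016). Kif18a was the mitotic gene that stayed below, 2.86-fold lower in IL-15 NK cells (log2 difference -1.52 ± 0.40, adjusted p = 0.014). That call was lost with quantile normalization (adjusted p = 0.074) and without a filter on low signals (adjusted p = 0.057). For the 7 that did not pass, differences with their SE were 0.81 ± 0.38 for Kif23, 0.66 ± 0.37 for Kif11, 0.54 ± 0.27 for Kif20b, 0.42 ± 0.30 for Kif22, -0.05 ± 0.23 for Kif20a, -0.18 ± 0.24 for Kif18b and -0.28 ± 0.34 for Kif4. Equality is not shown by these values.

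The transport genes above splenocytes after IL-15 were Kif13b (2.73-fold, adjusted p = 0.002), Kif1c (2.11-fold, adjusted p = 0.0029), Kif1b (1.95-fold, adjusted p = 0.0016) and Kif3b (1.92-fold, adjusted p = 0.0096, or 0.92 with the median over its probe sets). Kif1b and Kif1c thus lay between resting NK cells and splenocytes after IL-15. Kif5c did not pass (difference 0.46 ± 0.25), nor did Kif3a, Kif3c, Kif13a, Kif16b, Kif17, Kif1a and Kif5b, with differences from -0.59 to 0.32. With the median over probe sets Kif16b was called higher (1.25, adjusted p = 0.0039) and Kif5b lower (-0.86, adjusted p = 0.0043). Kif21b was 2.75-fold lower in IL-15 NK cells than in splenocytes (log2 difference -1.46 ± 0.23, adjusted p = 0.0015). Kif6 was again called lower, with an adjusted p of 0.043 that failed in 9 of 10 alternatives.

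**Figure D4:**
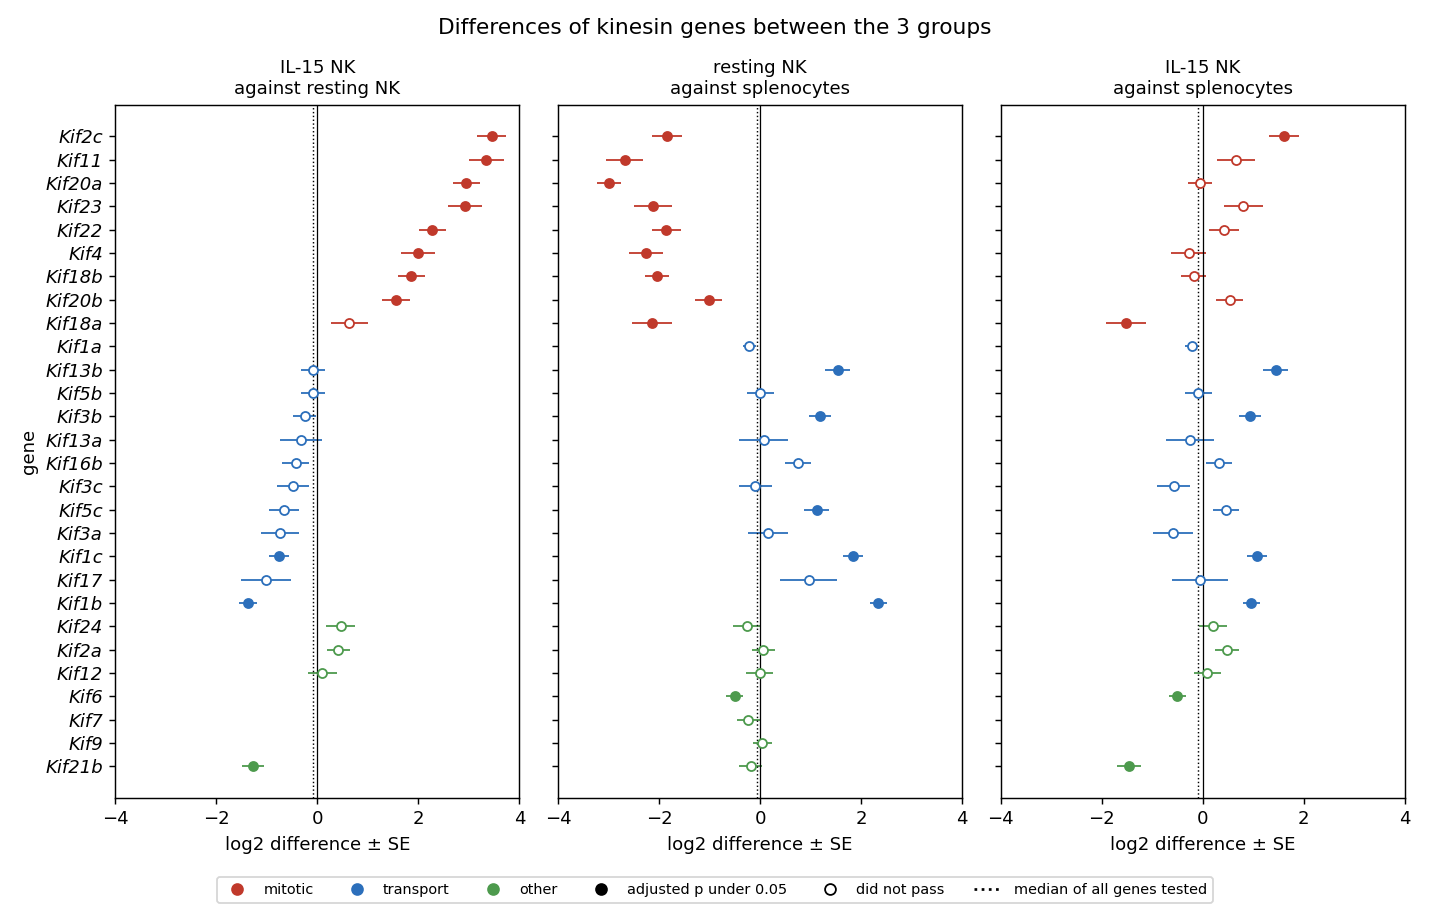
Log2 difference with SE (x axis) for the 28 kinesins tested in at least 1 comparison (y axis), in a panel for each comparison. Filled points passed the adjusted p threshold, open points did not, and the dotted line marks the median of all genes tested. Mitotic genes lie right of 0 in the first panel and left of 0 in the second, with transport genes on the other side or near 0.

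Neighbouring gene lists were read the same way. Of 18 partners and regulators of mitotic kinesins, all tested, 15 rose with IL-15 and no member fell. Over all genes tested, 14.2% rose and 12.1% fell. The median of the 18 was 2.65 on the log2 scale. Aurkb, the kinase that phosphorylates Kif2c and Kif23 among others, rose at least 23.9-fold (adjusted p = 1e-05), and Hmmr, a spindle-pole protein, at least 12.8-fold (adjusted p = 4.8e-05). All resting arrays of Hmmr lay below the floor, so it passed the filter through its IL-15 arrays alone and had to differ. Cdk1, the kinase that drives entry into mitosis, rose 12.8-fold (adjusted p = 2.8e-05), with signals of 7521, 7280.3 and 6582 in IL-15 NK cells, against 813, 532 and 393 in resting NK cells. Nusap1, a spindle microtubule protein, rose 10.02-fold (adjusted p = 0.00021). The 3 that did not pass were chosen for naming after their values were seen: Racgap1, the partner of Kif23 in centralspindlin (0.09 ± 0.30), Foxm1, a transcription factor of late cell cycle genes (0.11 ± 0.39), and Lin9, a subunit of the MuvB complex (0.32 ± 0.29). Against splenocytes, 14 of the 18 were lower in resting NK cells and none higher, beside 21.5% lower and 17.1% higher over all genes tested. Hmmr was tested there through the splenocyte chips alone. After IL-15, 4 were higher and 2 lower than in splenocytes, beside 20.8% higher and 23.5% lower over all genes tested.

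Kinesin-superfamily genes with other symbols behaved by gene. Of 5 tested, 3 rose with IL-15 and none fell, beside 14.2% rising and 12.1% falling over all genes tested. Cenpe, the kinetochore motor, had signals of 1365, 1610.4 and 1186 in IL-15 NK cells, against 372, 401 and 278 in resting NK cells, a 3.98-fold rise (adjusted p = 0.00081). It remained 2.15-fold lower in IL-15 NK cells than in splenocytes (adjusted p = 0.011). Kifc1, a minus-end spindle motor, rose at least 2.86-fold (adjusted p = 0.0031) and its close relative Kifc5b at least 1.92-fold (adjusted p = 0.047). These 2 genes are near copies, and the probe set of Kifc1 carries the suffix of sets that can bind several transcripts, so their signals may not be separate.

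Cargo-side genes were read against the 26.3% called over all genes. Of 13 kinesin light chains and adaptors, 12 were tested, 1 fell, none rose and 11 did not pass, with a median of -0.12. Over all genes tested 12.1% fell, so a single lower gene is near that share. The brightest members, Kidins220, a membrane scaffold that binds kinesin-1, and Trak2, a mitochondrial adaptor, differed by -0.38 ± 0.16 and -0.14 ± 0.20. The gene that fell, named after its value was seen, was the kinesin light chain Klc4. It had signals of 1048, 1494 and 1211 in IL-15 NK cells, against 3817, 2846 and 4181 in resting NK cells, and was 2.88-fold lower (adjusted p = 0.0016). Like Kif1b and Kif1c it was also higher in resting NK cells than in splenocytes, 2.58-fold (adjusted p = 0.0026). Against splenocytes, 3 of 13 were higher and 1 lower in resting NK cells, and 2 were higher and 2 lower after IL-15, beside 38.6% and 44.3% called over all genes in those comparisons.

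Dynein, the motor that runs towards microtubule minus ends, was read beside them. Of 18 tested dynein and dynactin genes 2 rose, 1 fell and 15 did not pass with IL-15, with a median of 0.06, beside 14.2% rising and 12.1% falling over all genes. The light chain Dynll2 rose 1.83-fold (adjusted p = 0.025) and Nde1, a dynein regulator that also acts in mitosis, rose 1.61-fold (adjusted p = 0.028). Dctn1, the large dynactin subunit, was 1.58-fold lower in IL-15 NK cells (adjusted p = 0.022). Against splenocytes, 7 of 18 were higher and 2 lower in resting NK cells, and 6 were higher and 2 lower after IL-15, beside the same 38.6% and 44.3%.

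Several kinesins have more than 1 probe set, and these did not always read alike. Of the 11 kinesins called between the NK groups, 7 had other tested probe sets. In 2 of those 7 every other set gave the same call, and in none did any set give the opposite call. All 3 sets of Kif11 rose, by 3.34, 3.50 and 1.36 on the log2 scale, and all 3 sets of Kif22 rose, by 2.28, 2.52 and 1.52. For Kif2c the second set rose by 1.78 and another gave 0.69 without passing. Kif23 rested on its brightest set, since its second tested set differed by 0.20 (adjusted p = 0.64), and Kif20b likewise, with 0.57 in its second set (adjusted p = 0.16). The brightest sets of Kif2c and Kif22 carry the suffix of sets whose probes can bind other transcripts.

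For Kif1b, 4 of 6 other tested sets fell with IL-15, by 1.05 to 1.68 on the log2 scale, and 1 gave 0.12 without passing. Kif1c had a second tested set at -0.18 (adjusted p = 0.70). Kif13b, which did not pass by its brightest set, fell by 1.11 in another set (adjusted p = 0.017). Against splenocytes, 3 of 4 other tested sets of Kif2a were lower in resting NK cells (-1.84, -1.91 and -2.23), whereas the brightest set gave 0.07. Kif11 had a set that was lower in IL-15 NK cells than in splenocytes (-1.80), and so had Kif23 (-1.57) and Kif2c (-1.20). Some transport kinesins that did not pass also had called sets against splenocytes. Some other sets of Kif5b were lower in resting NK cells (-0.67 and -1.58) and in IL-15 NK cells (-0.90 and -2.18). Another set of Kif16b was higher in both (1.51 and 1.25), and another of Kif17 was higher in resting NK cells (0.83). A set of Kif13a was lower in both (-1.31). Statements on Kif11, Kif23 and Kif2c in IL-15 NK cells against splenocytes, and on Kif2a, Kif5b, Kif13a, Kif16b and Kif17 against splenocytes, therefore do not hold for every probe set. In resting NK cells against splenocytes, the other tested sets of Kif11 (-3.09 and -3.16) and Kif23 (-1.78) were also called lower. So were 2 other sets of Kif2c (-1.65 and -1.43), while another gave -0.58 without passing.

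**Figure D5:**
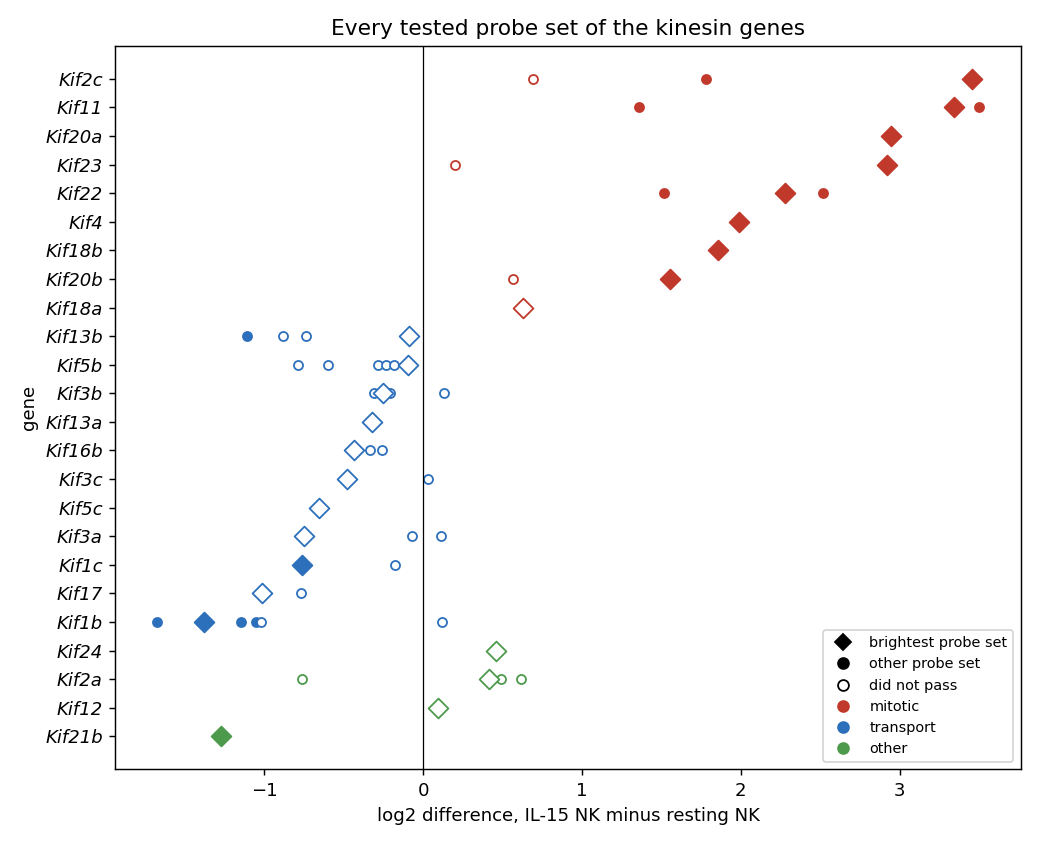
Log2 difference, IL-15 NK minus resting NK (x axis) for every tested probe set of each kinesin (y axis), with diamonds for the brightest set and circles for others, filled where the set passed. All sets of the mitotic genes lie right of 0, though single sets of Kif2c, Kif18a, Kif20b and Kif23 did not pass.

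Spread between replicates varied from gene to gene. Over the 24 kinesins tested between the NK groups, the median SD on the log2 scale was 0.29 in IL-15 NK cells, 0.35 in resting NK cells and 0.23 over the splenocyte chips, and the largest SD was 0.99, in resting NK cells (Kif17). By detection, 9 of 12 mitotic kinesins were above the floor on all IL-15 arrays, 7 on all resting NK arrays and 9 on all splenocyte chips. For transport kinesins the counts were 9, 10 and 8 of 13, and for the others 4, 3 and 3 of 12.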

How the data were processed

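The files hold 1 deposited table of array signals, 45101 probe sets on 10 Affymetrix MOE430_2 arrays. The deposited values are intensity on a linear scale, and the submitters' processing notes name GCOS 1.4 as the authors' software. The deposited columns share a mean of 1500.01 after trimming 2% at each end, and no further scaling was applied. Probe sets were named through the platform annotation (34945 with a single gene, 932 with several, 9160 unnamed). Signals below 179.85, the median over arrays of the 40th percentile, were raised to it before log2. Tests used limma 3.58.1 in R 4.3.3 (lmFit, eBayes with an intensity trend, 2-sided) on all genes with at least 3 arrays above the floor, with Benjamini-Hochberg adjustment over all of them. The NK groups were compared on their 6 arrays alone. Comparisons with splenocytes used all 3 groups, with chips averaged in pairs in all 3 ways and the least favourable p taken. The number of arrays limits the precision. P-values set each difference against the spread between these arrays as moderated by limma, and arrays at the floor understate that spread. The procedure was tested on simulated data.

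The kinesin rule, role groups, gene lists and motifs were chosen with earlier results of these data known. Every kinesin is accounted for. From each other list, up to 4 called genes with the largest differences between the NK groups are named, or the 2 brightest where fewer than 2 passed. Promoter sequences are RefSeq windows on GRCm38.p6. Alternatives were other floors, no filter, an offset of 50, quantile normalization, the median over probe sets, a replicate block, independent chips and leaving out each array. Correlations of same-numbered NK arrays' deviations were 0.10, 0.28 and 0.07, the last short of the 0.1 asked of every pair, so no pairing was used in the main tests.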

Additional observations from a re-analysis of the deposited data

Results flagged for a closer look

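In 28 splenocyte gene groups checked for a chip far from the others, 3 were picked out, and chance alone picks about 1 in 20. All 3 concern splenocyte replicate 4, and the cause was not tested. Kif1c read 10.31 on the log2 scale there, below the other 3 chips at 10.72 to 10.76. Without this chip Kif1c was still higher in resting NK cells than in splenocytes (log2 difference 1.74, limma adjusted p = 0.00022). Kif21b read 13.36, above the others at 12.35 to 12.52. Without it, IL-15 NK cells were still lower than splenocytes in Kif21b (-1.22, adjusted p = 0.0014). Kif5c read 7.52, above the others at 7.49, a difference at the floor itself.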

How the results depend on the processing

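The 8 mitotic kinesins that rose with IL-15 stayed 7 to 8 when single arrays were left out (Kif20a cannot be tested without an IL-15 array) and numbered 6 with the median over probe sets, and the 9 lower in resting NK cells than in splenocytes stayed 9 without single arrays and numbered 8 with that median. Below, causes were not tested unless the setting itself shows them. Between the NK groups, testing every gene without a filter reduced calls to 1646 genes (969 higher, 677 lower), against 3003 (1619 and 1384). Transport kinesins lower then numbered 1 in place of 2, without Kif1c (adjusted p = 0.065). Leaving out single arrays gave 1963 to 3241 calls, 841 to 1537 lower genes (fewest without IL-15 NK replicate 3) and 1 to 4 lower transport kinesins. With the median over a gene's probe sets, which brings dim sets in, 0 other kinesins were lower (Kif21b adjusted p = 0.054), Kif20b (0.19, adjusted p = 0.5), Kif23 (0.33, adjusted p = 0.29) and Kif1c (-0.03, adjusted p = 0.93) lost their calls, and Kif13b gained one (-1.03, adjusted p = 0.02).

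Between resting NK cells and splenocytes the count of other kinesins lower, which is Kif6, was 0 with a floor at the 20th or 60th percentile, without the filter, with an offset of 50, under quantile normalization and with 4 independent chips, and 0 to 1 when arrays were left out (without splenocyte replicates 1, 2 or 3 the gene could not be tested). The median over probe sets gave 1 lower transport kinesin in place of 0 and turned Kif2a (-1.96, adjusted p = 0.00078) and Kif5b (-0.59, adjusted p = 0.027), while Kif20b (-0.02, adjusted p = 0.92) and Kif3b (0.26, adjusted p = 0.41) lost their calls. Kif16b (1.51, adjusted p = 0.0018) and Kif17 (0.78, adjusted p = 0.013) gained calls as higher.

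Between IL-15 NK cells and splenocytes, mitotic kinesins higher numbered 2 with a floor at the 60th percentile, 2 with independent chips, 0 with the median over probe sets and 1 to 2 when arrays were left out (2 without IL-15 NK replicate 3, adding Kif22). Mitotic kinesins lower numbered 0 without the filter, 0 under quantile normalization and 2 with the median over probe sets. That median also gave 1 lower transport kinesin and turned Kif23 (-1.45, adjusted p = 0.001), Kif2a (-1.35, adjusted p = 0.0042) and Kif2c (-0.13, adjusted p = 0.61). The lower transport kinesin was Kif5b (-0.86, adjusted p = 0.0043), while Kif16b gained a call as higher (1.25, adjusted p = 0.0039). Other kinesins higher numbered 1 with independent chips (Kif2a), and other kinesins lower numbered 1 with either floor, without the filter, with the offset, under quantile normalization and with independent chips, and 1 to 2 when arrays were left out. Quantile normalization moved the median of all genes in this comparison to 0.11, against -0.10.

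Whether replicate numbers pair the NK arrays was not settled: deviations of same-numbered arrays correlated at 0.10, 0.28 and 0.07, IL-15 replicates 2 and 3 correlated best with their own number, and IL-15 replicate 1 with resting replicate 3 (0.15). The replicate block gave 3421 calls (1783 higher, 1638 lower) and changed no kinesin call. Of the single-gene values under all alternatives, 287 of the first comparison, 345 of the second and 326 of the comparison of IL-15 NK cells with splenocytes kept their call or lack of one. Changes of sign in genes short of the threshold were counted as kept. In the same order, 7, 11 and 12 values lost a call and 3, 8 and 8 gained one. Direction turned in 2 values of the second comparison and 3 of the last. Apart from these settings, 9 of 37 kinesins were too dim for any test, and the fold of a gene at the floor is only a bound.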
